A study of Mus musculus with 21 samples.

Results

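The comparison set type 1 conventional dendritic cells (cDC1) against type 2 conventional dendritic cells (cDC2), both sorted from mouse spleen and profiled one cell at a time. It used every deposited cell whose name carried the prefix of the splenic cDC1 library or of the splenic cDC2 library, and all genes of the count table. That gave 814 cDC1 cells and 1881 cDC2 cells, together 2695 of the 25991 cells and 2 of the 21 libraries of the series. The study converted embryonic fibroblasts into dendritic cells with sets of transcription factors, and the splenic cells served as its natural counterparts. Both populations came from wildtype mice, were not transduced and had no culture time. Live cells excluding the dye DAPI were sorted by flow cytometry, the cDC1 for the surface proteins CD11c, MHC class II and CD8alpha, and the cDC2 for CD11c, MHC class II and CD11b. How many mice were used, and of what age, was not given in the sources used here. Each side is 1 library, so no statistical test across animals was possible. Levels count unique molecular identifiers (UMIs, 1 per captured transcript) of a gene per 1000000 UMIs of its library (CPM). Brackets after a log2 ratio of cDC1 over cDC2 hold its exact 95% interval, and all intervals cover counting error only.

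Conventional dendritic cells take up antigen, cut it into peptides and display these to T cells. The cDC1 depend on the transcription factors IRF8 and BATF3, take up dying cells, sense double-stranded RNA through TLR3 and are known for presenting outside antigen on MHC class I to CD8 T cells, which is called cross-presentation. The cDC2 depend on IRF4 and, in the spleen, on Notch2, carry SIRPalpha and CD11b, and are known for presenting antigen on MHC class II to CD4 T cells. In the mouse spleen the CD8alpha protein marks the resident cDC1.

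The cDC1 library held 13208494 UMIs with a median of 15938 UMIs and 3375 genes per cell, and the cDC2 library held 23357225 UMIs with a median of 11957 UMIs and 3103 genes per cell. Mitochondrial transcripts took 1.49% of the UMIs in cDC1 and 1.74% in cDC2. Ribosomal protein transcripts took 26.8% in cDC1 and 27.2% in cDC2. The libraries shared 0 cell barcodes. No cell was removed, and Scrublet called 7 of the 814 cDC1 cells and 9 of the 1881 cDC2 cells as doublets. Because cDC1 cells were deeper, shares of cells with a UMI are given after each cell had been thinned to 2500 UMIs, unless they are called unthinned. The splenic plasmacytoid dendritic cell (pDC) library, with 4169 cells and a median of 11707 UMIs, serves as a further point where it helps to place a gene.

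The cells were checked against 10 cDC1 markers and 11 cDC2 markers. Of the cDC1 cells, 811 of 814 held more UMIs of the cDC1 markers than of the cDC2 markers, with a median of 12 cDC1 marker UMIs and 0 cDC2 marker UMIs per cell. Of the pDC, 3869 of 4169 (92.8%) also held more cDC1 marker UMIs, Irf8 being a marker that pDC share, so this count does not tell cDC1 from pDC. Of the cDC2 cells, 1107 of 1881 (58.9%) held more UMIs of the cDC2 markers, 330 held equal numbers and 444 (23.6%) held more UMIs of the cDC1 markers, with medians of 1 cDC1 marker UMI and 2 cDC2 marker UMIs. Among the 10 cDC1 markers, Wdfy4 and Batf3 had UMIs in 46.2% and 34.9% of cDC2 cells, whereas Xcr1, Clec9a, Cadm1 and Tlr3 had UMIs in 0.479% to 1.86%. The defining cDC2 markers Sirpa and Cd209a were present in 39.9% and 34.7% of cDC2 cells after thinning, and in 85.3% and 58.5% of them unthinned.

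**Figure D1:**
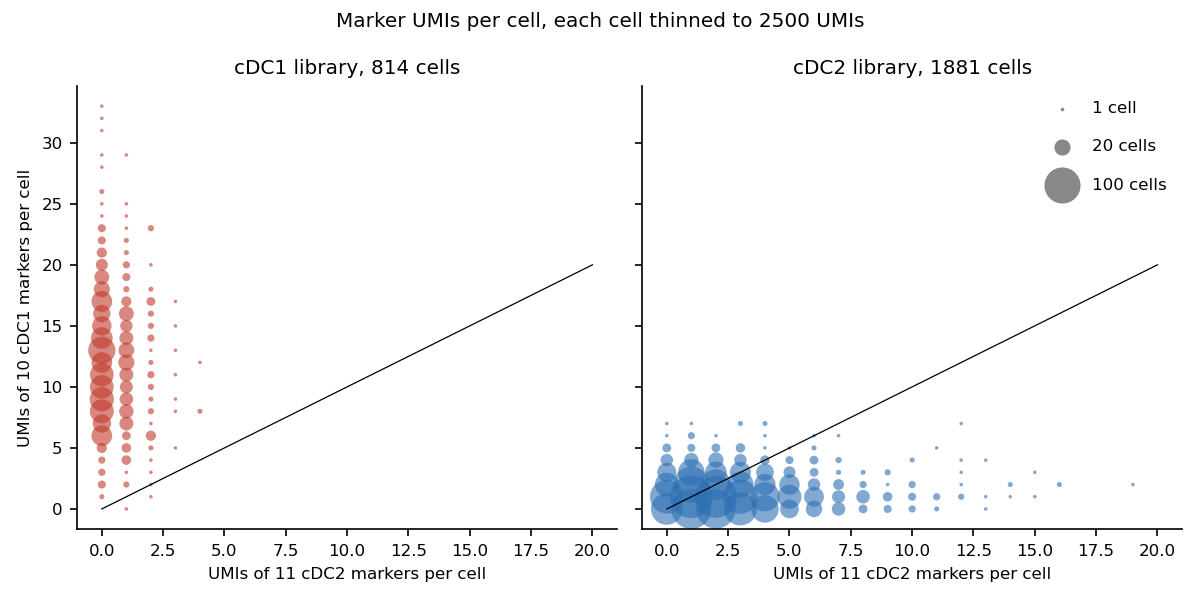
UMIs of the 10 cDC1 markers (vertical axis) against UMIs of the 11 cDC2 markers (horizontal axis) in single cells thinned to 2500 UMIs, for the cDC1 library (left) and the cDC2 library (right). The area of a circle gives the number of cells at that position and the line marks equal numbers. Nearly all cDC1 cells lie above the line, 811 of 814, whereas cDC2 cells lie close to the origin, with 1107 of 1881 below it.

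Most genes had similar levels in cDC1 and cDC2, and the largest ratios included surface receptors, pattern recognition receptors and some transcription factors. Of 24455 genes in the table, 9401 reached 5 CPM in at least 1 of both libraries and were compared. In cDC1, 671 genes (7.14%) were at least 2-fold higher and 1319 genes (14%) at least 2-fold lower, so that 21.2% passed 2-fold in either direction. Thus 33.7% of the genes past 2-fold were on the cDC1 side. With the library totals rescaled by TMM factors, 852 genes were higher and 1071 lower in cDC1, which puts 44.3% on the cDC1 side. The median log2 ratio over all 9401 genes was −0.19, and TMM moved it by 0.16. Differences of at least 8-fold were found for 149 genes higher in cDC1 (1.58%) and 332 genes lower in cDC1 (3.53%). The counting intervals lay wholly past 2-fold for 513 genes higher and 982 genes lower in cDC1. These counts describe 1 pair of libraries and are no test of the cell types. The counts of each gene list below are to be read beside the shares over all genes, 7.14% higher and 14% lower. The lists were written with earlier results of these data known, so their counts are a description and no test.

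**Figure D2:**
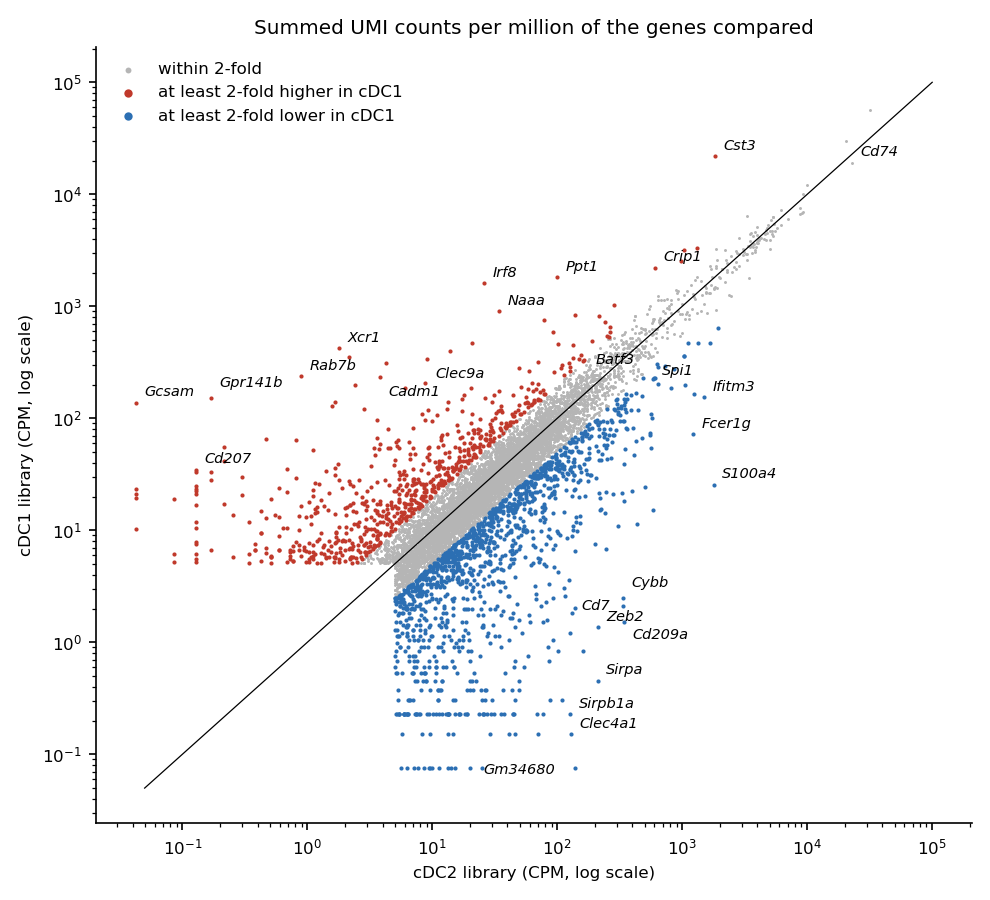
Levels of the 9401 genes compared in the cDC1 library (vertical axis, CPM) and the cDC2 library (horizontal axis, CPM), both on log scales. Red points are at least 2-fold higher in cDC1 (671 genes), blue points at least 2-fold lower (1319 genes), the line marks equal levels, and a count of 0 is drawn at 3 counts. Irf8, Xcr1, Naaa, Ppt1 and Cst3 stand out on the cDC1 side, and S100a4, Fcer1g, Cd209a, Cybb, Sirpa and Sirpb1a on the cDC2 side.

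Of 24 genes known as surface receptors and effectors of cDC1, 23 were at least 2-fold higher in cDC1, and the other, Wdfy4, stood just under 2-fold. Their median log2 ratio was 4.83, against −0.19 over all genes compared. Because the list was written with earlier results of these data known, this contrast is no independent support. Cd8a, an antigen of the sort, is among the 24, and without it 22 of 23 were higher, with a median of 4.72. Xcr1, the receptor for the chemokine XCL1, had 424 CPM in cDC1 and 1.80 CPM in cDC2, a log2 ratio of 7.88 [7.44 to 8.35]. It was detected in 61.8% of cDC1 cells [58.4 to 65.1] and in 0.479% of cDC2 cells [0.219 to 0.906]. In pDC, which lack this receptor, 0.12% of cells held an Xcr1 UMI. Clec9a, a lectin that binds the exposed actin of dead cells, had 336 CPM in cDC1 and 9.08 CPM in cDC2 (log2 ratio 5.21). Cadm1, an adhesion molecule, had 231.6 CPM in cDC1 and 3.81 CPM in cDC2. Tlr3, the endosomal sensor of double-stranded RNA, had 186 CPM in cDC1 and 6.04 CPM in cDC2. These receptors separated the libraries by log2 ratios of 4.95 or more.

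Several further members of the cDC1 set had few or no UMIs in the cDC2 library. Gcsam, a signalling adaptor first described in germinal centre B cells, had 1824 UMIs in cDC1 and 1 UMI in cDC2, a log2 ratio of 11.66 with an interval of 9.18 to 16.96. Cd207, which encodes langerin, had 461 UMIs (34.9 CPM) in cDC1 and 0 UMIs in cDC2. With 3 counts standing for the 0 it was 271.7-fold higher in cDC1, which is no lower bound. Rab7b, a small GTPase of late endosomes, had 239.7 CPM in cDC1 and 0.899 CPM in cDC2 (log2 ratio 8.06 [7.44 to 8.75]). Plpp1, a lipid phosphatase, had 65.0 CPM in cDC1 and 0.471 CPM in cDC2 (log2 ratio 7.11). Cd36, a scavenger receptor for lipids and dying cells, had 139 CPM in cDC1 and 1.67 CPM in cDC2 (log2 ratio 6.38). Ifi205, an interferon-inducible member of the Ifi200 family, had 311 CPM in cDC1 and 4.28 CPM in cDC2 (log2 ratio 6.18). The log2 ratios of these genes were all 6.18 or more.

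The most abundant genes of this set belong to the lysosome. Ppt1, a lysosomal thioesterase that removes fatty acids from proteins, had 1831 CPM in cDC1 and 99.7 CPM in cDC2 (log2 ratio 4.20 [4.14 to 4.26]). It was found in 97.1% of cDC1 cells and 22.5% of cDC2 cells, and 21.4% of pDC. Naaa, a lysosomal amidase, had 905 CPM in cDC1 and 34.4 CPM in cDC2 and was found in 84.8% of cDC1 cells and 7.02% of cDC2 cells. Members that did not separate the libraries were few. Wdfy4, which is required for cross-presentation in mouse cDC1, had 512 CPM in cDC1 and 264.5 CPM in cDC2 (log2 ratio 0.95) and was found in 67.8% of cDC1 cells and 46.2% of cDC2 cells. Rab43, a GTPase also linked to cross-presentation in mouse cDC1, had 327 CPM in cDC1 and 159.9 CPM in cDC2 (log2 ratio 1.03), and Fgd2, a Cdc42 exchange factor, had 242 CPM in cDC1 and 113 CPM in cDC2 (log2 ratio 1.10). The last pair stood just past 2-fold.

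**Figure D3:**
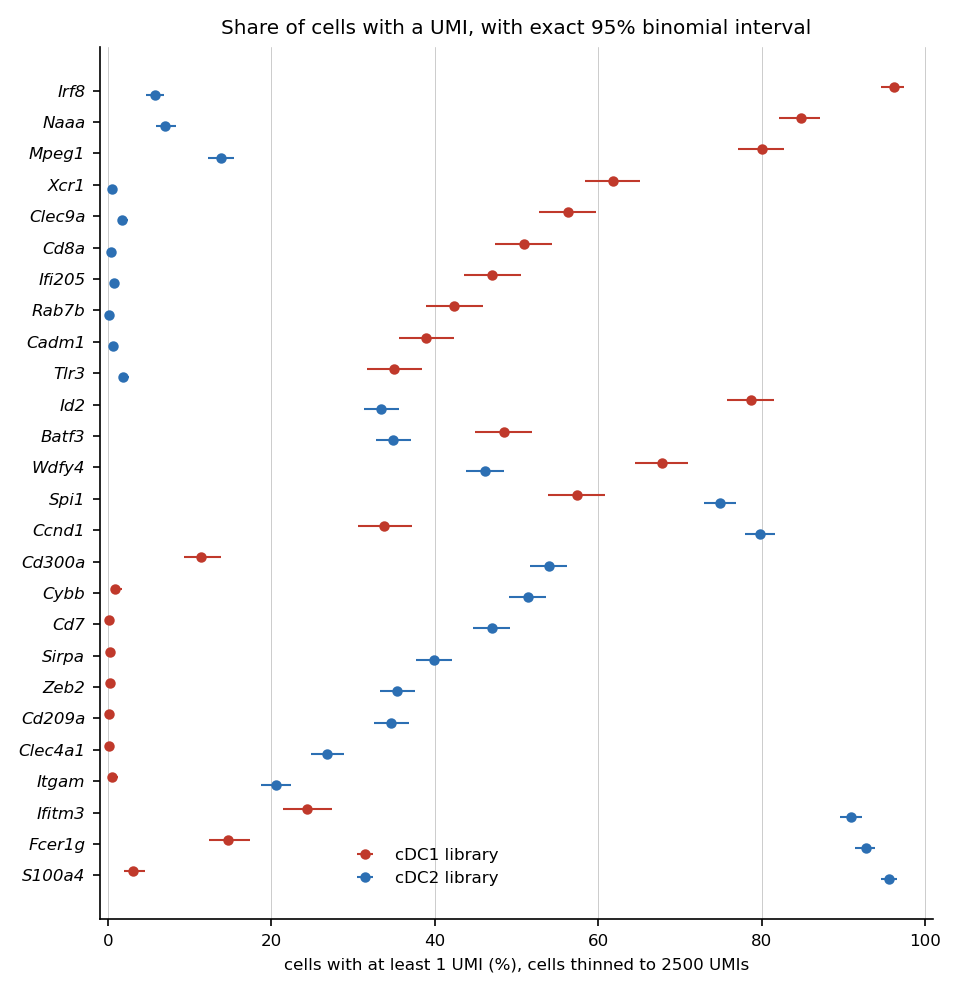
Share of cells with at least 1 UMI of each gene after thinning to 2500 UMIs per cell (horizontal axis, percent), in the cDC1 library (red) and the cDC2 library (blue). Bars are exact 95% binomial intervals over the cells of 1 library. Xcr1 (61.8% of cDC1 cells and 0.479% of cDC2 cells) and S100a4 (3.07% of cDC1 cells and 95.6% of cDC2 cells) separate the libraries, whereas Batf3, Wdfy4 and Spi1 are frequent in both.

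Of 25 genes known as surface receptors and effectors of cDC2, 22 were at least 2-fold lower in cDC1 and 1 was higher, with a median log2 ratio of −5.24. Itgam, an antigen of the sort, is among the 25, and without it 21 of 24 were lower, with a median of −5.20. Sirpa, which encodes the receptor for the "do not eat me" protein CD47, had 0.454 CPM in cDC1 and 211 CPM in cDC2 (log2 ratio −8.86 [−10.30 to −7.73]). It was found in 0.246% of cDC1 cells and 39.9% of cDC2 cells. Cd209a, a C-type lectin related to DC-SIGN, had 1.51 CPM in cDC1 and 342 CPM in cDC2 (log2 ratio −7.82). Clec4a4, the target of the antibody 33D1, had 0 UMIs in cDC1 and 1619 UMIs in cDC2. With 3 counts standing for the 0, Clec4a4 was 305.2-fold lower in cDC1. Clec4a4 has close paralogs, among which the counting could split reads. Csf1r, the receptor for macrophage colony-stimulating factor, had 3.33 CPM in cDC1 and 85.2 CPM in cDC2. Cx3cr1, the fractalkine receptor, had 1.21 CPM in cDC1 and 52.7 CPM in cDC2.

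Several genes of this set reached high levels in cDC2. S100a4, a calcium-binding protein, had 25.6 CPM in cDC1 and 1783 CPM in cDC2 (log2 ratio −6.12 [−6.28 to −5.97]) and was found in 3.07% of cDC1 cells and 95.6% of cDC2 cells. Fcer1g, the signalling chain of several Fc receptors, had 72.6 CPM in cDC1 and 1223 CPM in cDC2, and was found in 14.7% of cDC1 cells and 92.7% of cDC2 cells. Cd7, a receptor better known from T and NK cells, had 2.12 CPM in cDC1 and 335 CPM in cDC2. Tmem176a and Tmem176b, neighbouring genes for intracellular ion channels, had 11.4 and 15.3 CPM in cDC1 and 437 and 583 CPM in cDC2. Dtx1, a target of Notch signalling, had 0.833 CPM in cDC1 and 102 CPM in cDC2 (log2 ratio −6.93). Clec12a, an inhibitory lectin for uric acid crystals, went the other way, with 155 CPM in cDC1 and 56.4 CPM in cDC2 (log2 ratio 1.46). Ccr2 had 85.4 CPM in cDC1 and 86.7 CPM in cDC2, and the tetraspanin Cd9 had 301 CPM in cDC1 and 170.4 CPM in cDC2. These 3 genes were thus not lower in cDC1.

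The antigens used in the sort followed the gates and are no finding. Cd8a had 353 CPM in cDC1 and 2.14 CPM in cDC2, and Itgam, which encodes CD11b, had 1.06 CPM in cDC1 and 93.2 CPM in cDC2. Itgax, which encodes the CD11c used for both, had 145 CPM in cDC1 and 293 CPM in cDC2. Genes shared by conventional dendritic cells were mostly at similar levels. Flt3, the receptor for the growth factor of this lineage, had 166 CPM in cDC1 and 135 CPM in cDC2, and the lineage factor Zbtb46 had 73.8 CPM in cDC1 and 79.0 CPM in cDC2. Cst3, the protease inhibitor cystatin C, was far higher in cDC1, with 21777 CPM in cDC1 and 1835 CPM in cDC2 (log2 ratio 3.57 [3.55 to 3.58]). It was the third most abundant transcript of the cDC1 library.

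Among transcription factors, Irf8 set the libraries apart most clearly on the cDC1 side and Zeb2 on the cDC2 side, whereas Batf3 did not reach 2-fold. Irf8 had 1607 CPM in cDC1 and 25.9 CPM in cDC2 (log2 ratio 5.95 [5.84 to 6.07]), was found in 96.2% of cDC1 cells and 5.69% of cDC2 cells, and reached 3555 CPM in pDC. Batf3, the partner of IRF8 in cDC1 development, had 268 CPM in cDC1 and 175 CPM in cDC2 (log2 ratio 0.62 [0.55 to 0.68]). It was found in 48.4% of cDC1 cells and 34.9% of cDC2 cells but in 0.024% of pDC. Id2, an inhibitor of E proteins, had 818 CPM in cDC1 and 217 CPM in cDC2 (log2 ratio 1.91), and 3.86 CPM in pDC. Bcl11a, which the list of 7 compared cDC1 factors also held, was lower in cDC1, with 113 CPM against 304 CPM in cDC2. In that list 2 factors were higher and 1 was lower in cDC1, with a median log2 ratio of 0.62.

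Of 13 factors linked to cDC2, 8 were at least 2-fold lower in cDC1 and 0 were higher, with a median log2 ratio of −1.63. Zeb2, a repressor that antagonises the cDC1 fate in mice, had 1.36 CPM in cDC1 and 211 CPM in cDC2 (log2 ratio −7.28 [−8.03 to −6.61]). Irf4 had 1.44 CPM in cDC1 and 30.9 CPM in cDC2 (log2 ratio −4.43), and Klf4, a Krüppel-like factor needed by a branch of cDC2, had 10.8 CPM in cDC1 and 135 CPM in cDC2 (log2 ratio −3.64). Relb, a subunit of NF-kB, had 43.9 CPM in cDC1 and 270.1 CPM in cDC2, and Runx3 had 42.9 CPM in cDC1 and 249 CPM in cDC2. Notch2 itself differed little, with 57.8 CPM in cDC1 and 79.4 CPM in cDC2, and its DNA-binding partner Rbpj had 189 CPM in cDC1 and 125 CPM in cDC2. Among 15 factors shared by dendritic cells, 0 were higher and 3 were lower in cDC1, namely Spib, Tcf4 and Ikzf1. Spi1, which encodes PU.1, had 359 CPM in cDC1 and 587 CPM in cDC2 (log2 ratio −0.71). Spib, the related factor best known from pDC, had 0.379 CPM in cDC1, 24.4 CPM in cDC2 and 296 CPM in pDC.

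Promoter sequences are shown for 5 genes far apart in level, because their start regions hold motifs of the IRF family, whose members Irf8 and Irf4 lay on opposite sides of the comparison. They are from the RefSeq annotation of GRCm38.p6, run 5′ to 3′ on the strand of the gene from 250 bases before to 50 bases after its start, and capitals mark matches on either strand to a composite of an ETS and an IRF site (GGAA and GAAA with 2 bases of any kind between them) or to an IRF response element (GAAA and GAAA with 2 bases of any kind between them). Gpr141b (chr13:19732902-19733201, minus strand) is an orphan receptor gene and was among the genes with the highest ratio in cDC1. Cd8a (chr6:71373177-71373476, plus strand) and Ifi205 (chr1:174031706-174032005, minus strand) were also higher in cDC1. Ifitm6 (chr7:141016843-141017142, minus strand) and Cd209a (chr8:3748935-3749234, minus strand) were lower in cDC1.
Gpr141b: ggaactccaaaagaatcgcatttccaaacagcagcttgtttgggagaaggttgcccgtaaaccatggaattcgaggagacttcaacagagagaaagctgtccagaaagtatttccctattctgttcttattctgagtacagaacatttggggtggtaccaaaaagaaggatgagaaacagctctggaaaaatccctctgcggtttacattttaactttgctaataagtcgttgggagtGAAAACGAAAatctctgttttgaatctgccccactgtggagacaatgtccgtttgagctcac
Cd8a: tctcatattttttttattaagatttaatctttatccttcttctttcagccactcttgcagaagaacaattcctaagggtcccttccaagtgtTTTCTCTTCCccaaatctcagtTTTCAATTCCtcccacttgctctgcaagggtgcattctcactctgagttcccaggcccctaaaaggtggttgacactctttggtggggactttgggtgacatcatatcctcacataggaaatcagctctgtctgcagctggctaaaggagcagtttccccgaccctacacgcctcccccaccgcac
Ifi205: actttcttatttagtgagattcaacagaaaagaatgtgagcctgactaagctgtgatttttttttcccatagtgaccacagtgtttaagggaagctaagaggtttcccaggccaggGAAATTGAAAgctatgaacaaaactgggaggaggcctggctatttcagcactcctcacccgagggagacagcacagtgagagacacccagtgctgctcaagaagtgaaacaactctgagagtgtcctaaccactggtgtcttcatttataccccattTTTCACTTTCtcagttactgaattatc
Ifitm6: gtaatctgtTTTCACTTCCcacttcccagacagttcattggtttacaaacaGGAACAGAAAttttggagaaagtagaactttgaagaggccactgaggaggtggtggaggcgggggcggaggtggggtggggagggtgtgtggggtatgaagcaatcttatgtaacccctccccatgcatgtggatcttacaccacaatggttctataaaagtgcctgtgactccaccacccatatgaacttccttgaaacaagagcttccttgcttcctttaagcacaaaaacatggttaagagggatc
Cd209a: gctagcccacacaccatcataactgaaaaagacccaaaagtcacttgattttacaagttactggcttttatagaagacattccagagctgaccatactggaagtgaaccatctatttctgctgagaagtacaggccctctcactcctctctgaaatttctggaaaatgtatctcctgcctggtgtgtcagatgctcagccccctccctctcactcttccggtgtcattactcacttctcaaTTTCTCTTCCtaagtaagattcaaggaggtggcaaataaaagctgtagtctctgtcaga

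In these windows Cd8a held 2 composite matches and Ifi205 held 2 response element matches, and the single match of Gpr141b began at −12 relative to the start. Ifitm6 held 2 composite matches, and the match of Cd209a began at −9. Over the table of 32851 promoters, 27025 genes had a promoter, of which 3.16% held the composite and 3.99% the response element. Matches of both motifs overlapped in 39 promoters. Of the genes compared that had a promoter, 4.28% held the response element, against 7.89% (9 of 114) of those at least 8-fold higher in cDC1 and 11.9% (30 of 252) of those at least 8-fold lower. For the composite the shares were 3.2% of the genes compared, 4.39% (5 of 114) of those higher and 5.16% (13 of 252) of those lower. The AP-1 site TGANTCA was held by 5.81% of the genes compared, 7.89% of those higher and 12.7% of those lower. For an NF-kB site (GGGA and TTTCC with 1 base of any kind between them) the shares were 0.547%, 0.877% and 1.19%. A match describes letters in a window and does not show that a factor binds there.

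Genes of MHC class II presentation were close to equal for the core molecules and lower in cDC1 for some accessory genes. Of 15 genes, 6 were at least 2-fold lower in cDC1 and 0 were higher, with a median log2 ratio of −0.44. The invariant chain Cd74 had 19155 CPM in cDC1 and 22751 CPM in cDC2, and H2-Aa, H2-Ab1 and H2-Eb1, the chains of the classical molecules, had 6744, 7497 and 6951 CPM in cDC1 and 9147, 8734 and 9212 CPM in cDC2. Ciita, the master regulator of class II genes, had 386 CPM in cDC1 and 471.5 CPM in cDC2. MHC class II protein was a gate in both sorts, and none of these 5 genes reached 2-fold. The members that did were H2-Eb2, with 6.59 CPM in cDC1 and 140 CPM in cDC2, and H2-DMb2, a chain of the peptide exchange factor, with 63.3 CPM in cDC1 and 430 CPM in cDC2. Other chains of that factor stayed within 2-fold, H2-DMb1 on the opposite side (log2 ratio 0.65) and H2-DMa at a log2 ratio of −0.34. H2-Oa, which dampens that exchange, had 158.5 CPM in cDC1 and 476 CPM in cDC2. The proteases and reductase that prepare class II peptides and invariant chain were on the same side. Ctss had 361 CPM in cDC1 and 1024 CPM in cDC2, Lgmn had 15.2 CPM in cDC1 and 45.5 CPM in cDC2, and Ifi30 had 473 CPM in cDC1 and 1326 CPM in cDC2. H2 genes have close paralogs, so the split of reads among them is uncertain.

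Genes of MHC class I and cross-presentation hardly differed as a group. Of 26 genes, 1 was at least 2-fold higher in cDC1 and 3 were lower, with a median log2 ratio of 0.01. Over all genes compared, 7.14% were higher and 14% lower. The higher one was Pdia3, a chaperone of peptide loading, with 659 CPM in cDC1 and 263 CPM in cDC2 (log2 ratio 1.32). Tap1, the peptide transporter, had 233 CPM in cDC1 and 146 CPM in cDC2, and B2m, the light chain of class I, had 1236 CPM in cDC1 and 2460 CPM in cDC2 (log2 ratio −0.99). The lower genes included Cybb and Rac2, which form part of the phagocyte NADPH oxidase. Cybb, its catalytic subunit, had 2.50 CPM in cDC1 and 336 CPM in cDC2 (log2 ratio −7.07 [−7.61 to −6.58]), and 1040 CPM in pDC. Rac2 had 114 CPM in cDC1 and 357 CPM in cDC2.

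Toll-like receptors lay on both sides. Of 16 receptors and adaptors, 3 were at least 2-fold higher in cDC1 and 5 were lower, with a median log2 ratio of −0.41. The higher ones were Tlr3, Tlr11 and Tlr12, the last pair being sensors of the profilin of Toxoplasma in mice. Tlr11 had 94.03 CPM in cDC1 and 9.89 CPM in cDC2, and Tlr12 had 35.0 CPM in cDC1 and 0.685 CPM in cDC2. Lower in cDC1 were Tlr1, Tlr5, Tlr6, Tlr7 and the kinase Irak4. Tlr7, the sensor of single-stranded RNA, had 1 UMI in cDC1 and 588 UMIs in cDC2, a log2 ratio of −8.38 with an interval of −13.68 to −5.89. Tlr5, the flagellin receptor, had 0 UMIs in cDC1 and 175 UMIs in cDC2, 33.0-fold lower in cDC1 with 3 counts for the 0. Tlr1, a partner of TLR2 for lipopeptides, had 2.57 CPM in cDC1 and 41.0 CPM in cDC2. Unc93b1, which carries the endosomal receptors to their place, had 405 CPM in cDC1 and 450 CPM in cDC2.

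Most sensors in the cytosol were lower in cDC1. Of 11 genes, 8 were at least 2-fold lower in cDC1 and 0 were higher, with a median log2 ratio of −1.53. Ddx58, which encodes the RNA sensor RIG-I, had 1.59 CPM in cDC1 and 49.2 CPM in cDC2 (log2 ratio −4.95). Ifih1, which encodes the RNA sensor MDA5, had 10.5 CPM in cDC1 and 49.8 CPM in cDC2, and Tmem173, which encodes STING, had 22.2 CPM in cDC1 and 69.2 CPM in cDC2. Their adaptor Mavs, used by both RNA sensors, had a log2 ratio of 0.21, and the inflammasome genes Aim2 and Pycard had log2 ratios of −0.38 and −0.21.

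Interferon-stimulated genes were mostly lower in cDC1. Of 26 genes, 19 were at least 2-fold lower in cDC1 and 1, Ifi205, was higher, with a median log2 ratio of −2.20. Ifitm3, a membrane protein that blocks virus entry, had 154 CPM in cDC1 and 1503 CPM in cDC2 and was found in 24.3% of cDC1 cells and 91.0% of cDC2 cells. In pDC, 2.18% of cells held an Ifitm3 UMI. Ifit3 had 0.454 CPM in cDC1 and 49.2 CPM in cDC2, and Oasl2 had 0.681 CPM in cDC1 and 45.9 CPM in cDC2. Both encode antiviral proteins. Isg15, a ubiquitin-like modifier, had 31.3 CPM in cDC1 and 135.5 CPM in cDC2. Rtp4 had 2 UMIs in cDC1 and 1628 UMIs in cDC2, a log2 ratio of −8.85 [−11.89 to −6.99]. The Ifit, Ifitm and Oas genes have close paralogs and their split is uncertain. Irf7, the amplifier of the interferon response, was at 80.1 CPM in cDC1 and 79.5 CPM in cDC2, and Bst2 was at 135 CPM in cDC1 and 117 CPM in cDC2.

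C-type lectins divided between the libraries with large ratios on both sides. Of 19 lectins, 5 were at least 2-fold higher in cDC1 and 13 were lower, with a median log2 ratio of −4.61. Beside Clec9a, Clec12a and Cd207, the higher ones were Ly75, which encodes the uptake receptor DEC-205, with 56.3 CPM in cDC1 and 5.27 CPM in cDC2, and Clec4b2, with 20.8 CPM in cDC1 and 0.30 CPM in cDC2. The lower ones included Clec4a1, with 2 UMIs in cDC1 and 2989 UMIs in cDC2 (log2 ratio −9.72 [−12.77 to −7.87]). Clec4a3 had 0.303 CPM in cDC1 and 109.9 CPM in cDC2, and Clec10a, a lectin for galactose-type sugars, had 0.53 CPM in cDC1 and 38.5 CPM in cDC2. Clec4a genes are near-identical in part and their split is uncertain.

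Fc receptors and the adaptors that signal for them were mostly lower in cDC1, with 13 of 18 genes at least 2-fold lower, 1 higher and a median log2 ratio of −2.35. Tyrobp, the adaptor DAP12, had 645 CPM in cDC1 and 1927 CPM in cDC2, and the kinase Syk had 33.1 CPM in cDC1 and 130.5 CPM in cDC2. Cd300lf, an inhibitory receptor for lipids, had 3.63 CPM in cDC1 and 124 CPM in cDC2. Sirpb1c had 0 UMIs in cDC1 and 1031 UMIs in cDC2, with the same doubt about paralogs. With 3 counts for the 0, Sirpb1c was 194.3-fold lower in cDC1. Treml4, a receptor that binds dying cells in mice, was the one higher in cDC1, with 96.1 CPM against 29.9 CPM in cDC2.

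Many of these receptor genes lie near each other in the genome, and some runs of neighbours stood on the same side. How often neighbours shared a side over all genes was not counted. Of the genes compared, 9174 of 9401 (97.6%) had a RefSeq position in GRCm38.p6. Runs were formed from these genes in order of position, and genes under 5 CPM lying between them were skipped. Adjacent thus means next to each other among the genes compared. The longest run of adjacent genes past 2-fold on the same side was the Ms4a cluster on chromosome 19 (chr19:11321039-11604804), with 8 genes lower in cDC1 by log2 ratios of −2.48 to −5.99. Around Cd209a on chromosome 8 (chr8:3665762-3926841) there were 7 genes lower in cDC1. The Clec4a cluster on chromosome 6 (chr6:122921848-123143999) had 5 genes lower in cDC1, with ratios of −4.61 to −9.72. On the same chromosome, another lectin cluster (chr6:129349783-129452000) had 4 genes higher in cDC1, Clec12a, Clec1b, Clec9a and Clec1a, with ratios of 1.46 to 5.21. The Clec4a run was followed by Clec4b2, higher in cDC1 (log2 ratio 6.12), and by Clec4n, lower in cDC1 (log2 ratio −4.89). On chromosome 5 (chr5:92226679-92328079), Ppef2, Naaa, Sdad1 and Cxcl9 were 4 adjacent genes higher in cDC1, with ratios of 2.22 to 6.35. Runs of genes lower in cDC1 also covered the Ccl genes of chromosome 11 (6 genes), the Sirpb1 genes of chromosome 3 (6 genes), the Pira and Lilr genes of chromosome 7 (6 genes) and the S100a genes of chromosome 3 (4 genes).

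Chemokines differed in kind. Of 9 chemokine genes, 3 were at least 2-fold higher in cDC1 and 5 were lower, with a median log2 ratio of −2.08. Cxcl9, which attracts T cells through CXCR3, had 467 CPM in cDC1 and 20.98 CPM in cDC2 (log2 ratio 4.48 [4.34 to 4.61]) and was found in 32.7% of cDC1 cells and 2.45% of cDC2 cells. Within cDC1 it was concentrated in few cells, the top 10% of cells holding 71.8% of its UMIs. Cxcl16 had 79.1 CPM in cDC1 and 24.2 CPM in cDC2. Xcl1 had 137 UMIs in cDC1 and 1 UMI in cDC2, but the UMIs lay in 1.72% of cDC1 cells unthinned. Without cells that held markers of other cells, which left 372 cDC1 cells and 716 cDC2 cells, Xcl1 had 2 UMIs in cDC1 and 0 UMIs in cDC2, too few for a ratio. Of the 442 cDC1 cells left out, 434 held at least 2 pDC markers unthinned, so they are no count of other cells. Which kind of cell held the Xcl1 UMIs was not tested. Ccl5, a chemokine that attracts T cells, had 47.3 CPM in cDC1 and 413 CPM in cDC2. Ccl9 had 2 UMIs in cDC1 and 964 UMIs in cDC2, and Ccl6 had 21.5 CPM in cDC1 and 90.9 CPM in cDC2.

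Receptors of migration also divided, with 4 of 16 at least 2-fold higher in cDC1, 5 lower and a median log2 ratio of −0.40. Beside Xcr1, the higher ones were P2ry14, a receptor for UDP-sugars, with 198 CPM in cDC1 and 2.40 CPM in cDC2, Cxcr3, with 27.3 CPM in cDC1 and 2.14 CPM in cDC2, and Ccr9, with 35.2 CPM in cDC1 and 6.98 CPM in cDC2. The lower ones included Gpr183, an oxysterol receptor that positions splenic cDC2 in mice, with 10.1 CPM in cDC1 and 133 CPM in cDC2. Ccr6 had 0.379 CPM in cDC1 and 26.8 CPM in cDC2. Ccr7, the receptor of maturing and migrating dendritic cells, was low in both, with 13.9 CPM in cDC1 and 8.52 CPM in cDC2.

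Cytokine genes were few above 5 CPM, and 2 of 9 were at least 2-fold higher in cDC1 and 5 lower, with a median log2 ratio of −1.01. Il12b, a subunit of IL-12, had 69 UMIs in cDC1 and 2 UMIs in cDC2, in 0.369% of cDC1 cells after thinning. Without cells that held markers of other cells it had 7 UMIs in cDC1 and 0 UMIs in cDC2. Most cDC1 cells left out there held pDC markers and are no count of other cells. Which kind of cell held the Il12b UMIs was not tested. Il15 had 13.6 CPM in cDC1 and 4.24 CPM in cDC2. Ltb, which encodes lymphotoxin beta, had 24.5 CPM in cDC1 and 507 CPM in cDC2 (log2 ratio −4.37), and Il1b had 30.9 CPM in cDC1 and 183 CPM in cDC2. Of 27 cytokine receptors, 12 were at least 2-fold lower in cDC1 and 0 were higher, with a median log2 ratio of −0.91. Il2rg, the common gamma chain, had 14.4 CPM in cDC1 and 242 CPM in cDC2 (log2 ratio −4.07), and Il21r, which pairs with it, had 6.81 CPM in cDC1 and 92.7 CPM in cDC2. Ifngr1, a chain of the interferon gamma receptor, had 576 CPM in cDC1 and 449 CPM in cDC2.

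Costimulatory and maturation genes showed opposite sides within 1 family. Of 17 genes, 3 were at least 2-fold higher in cDC1 and 5 were lower, with a median log2 ratio of 0.34. Cd86, a ligand of CD28, had 185 CPM in cDC1 and 58.0 CPM in cDC2 (log2 ratio 1.67 [1.57 to 1.77]), whereas Cd80, the other CD28 ligand, had 14.8 CPM in cDC1 and 33.7 CPM in cDC2 (log2 ratio −1.19). The ligands of the inhibitory receptor PD-1 were lower in cDC1. Cd274, which encodes PD-L1, had 6.66 CPM in cDC1 and 73.7 CPM in cDC2 (log2 ratio −3.47), and Pdcd1lg2, which encodes PD-L2, had 0.757 CPM in cDC1 and 24.2 CPM in cDC2 (log2 ratio −5.00). Cd40 had 27.7 CPM in cDC1 and 54.3 CPM in cDC2 (log2 ratio −0.97).

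Genes of endosomes and lysosomes held members on both sides, with 6 of 22 at least 2-fold higher in cDC1, 8 lower and a median log2 ratio of −0.31. Beside Rab7b, Rab43, Ppt1 and Naaa, the higher ones were Rab32, with 118 CPM in cDC1 and 35.2 CPM in cDC2, and Rab11a, with 141 CPM in cDC1 and 64.7 CPM in cDC2. Of the 8 lower ones, 6 were cathepsins, the proteases of lysosomes. Ctsa had 27.5 CPM in cDC1 and 178 CPM in cDC2, Ctsd had 7.27 CPM in cDC1 and 43.6 CPM in cDC2, and Ctsc had 37.8 CPM in cDC1 and 149 CPM in cDC2. Tfeb, a regulator of lysosomal genes, had 15.4 CPM in cDC1 and 60.3 CPM in cDC2. Among 13 scavenger and lipid genes, 3 were higher and 5 lower in cDC1. Apol7c, an apolipoprotein L, had 395 CPM in cDC1 and 13.9 CPM in cDC2 (log2 ratio 4.83), and Plin2, a coat protein of lipid droplets, had 117 CPM in cDC1 and 17.4 CPM in cDC2. Lrp1, a scavenger receptor, had 0.379 CPM in cDC1 and 26.7 CPM in cDC2.

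Integrins and adhesion genes gave 4 of 21 higher and 5 lower in cDC1, with a median log2 ratio of −0.40. Without Itgam and Itgax, antigens of the sort, 4 of 19 were higher and 3 lower, with a median of −0.05. Itgae, which encodes CD103, had 23.9 CPM in cDC1 and 0.599 CPM in cDC2 (log2 ratio 5.32). Esam, an adhesion molecule of a Notch-dependent splenic cDC2 population in mice, had 1.74 CPM in cDC1 and 23.4 CPM in cDC2. Of 9 Notch pathway genes, 2 were higher and 2 lower in cDC1, against 7.14% and 14% of all genes compared. Notch4 had 27.2 CPM in cDC1 and 3.60 CPM in cDC2, whereas the ligand Jag1 had 0.454 CPM in cDC1 and 7.58 CPM in cDC2.

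**Figure D4:**
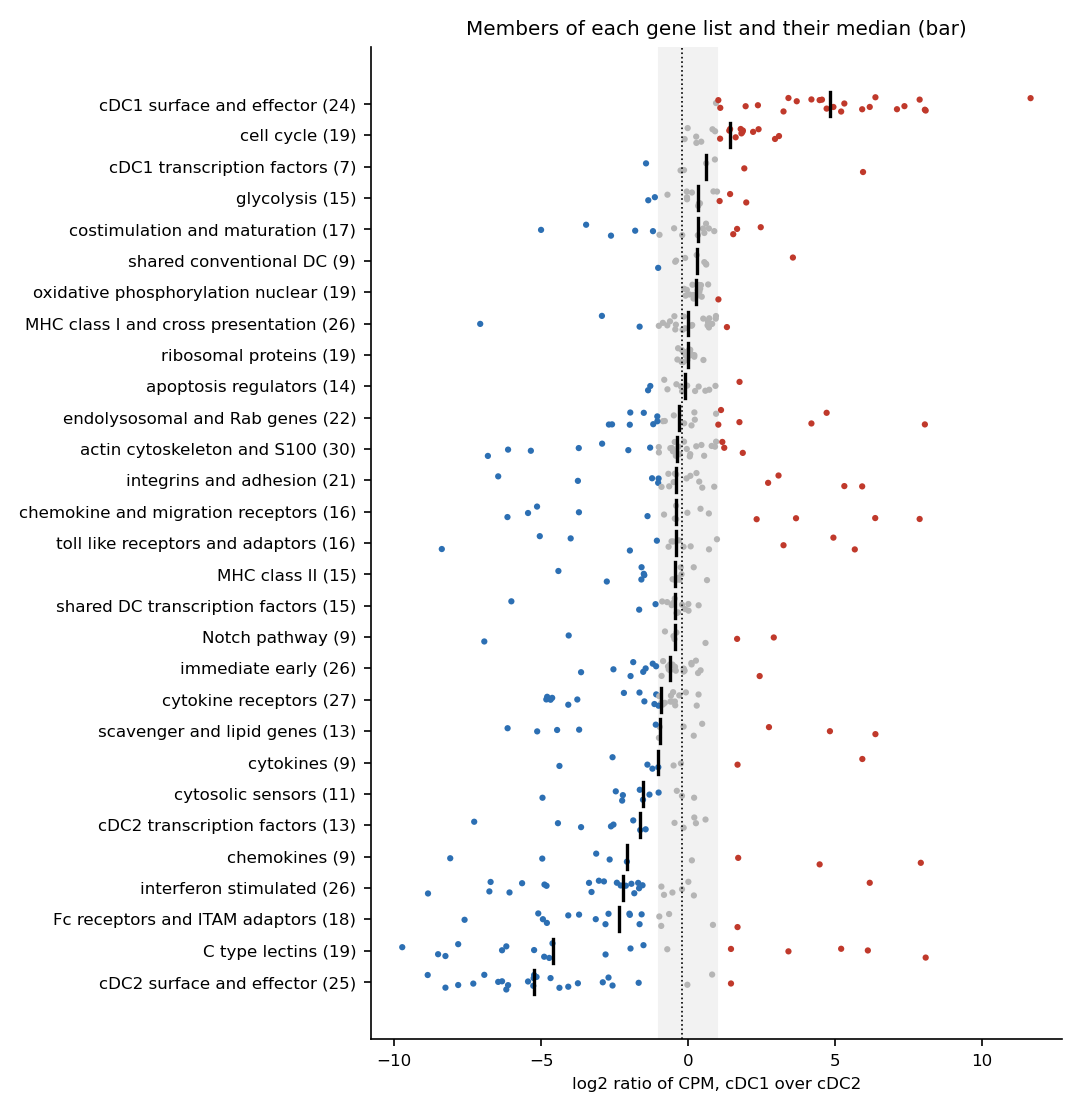
Log2 ratio of CPM, cDC1 over cDC2 (horizontal axis), of the compared members of each gene list, with their number in brackets. Points are genes, red at least 2-fold higher and blue at least 2-fold lower in cDC1, black bars are list medians, the shaded band is within 2-fold and the dotted line is the median of all genes, −0.19. The cDC1 surface list (median 4.83) and the cDC2 surface list (median −5.24) mark the ends among the lists drawn, and ribosomal proteins and oxidative phosphorylation stay within the band apart from Cycs.

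Listed cell cycle genes were mostly higher in cDC1 in summed counts. Of 19 genes, 12 were at least 2-fold higher in cDC1 and 0 were lower, with a median log2 ratio of 1.43. Ccnd1, cyclin D1, was not on this list and was lower in cDC1, with 197 CPM against 1049 CPM in cDC2. Pclaf, a PCNA-binding factor of DNA replication, had 38.3 CPM in cDC1 and 4.92 CPM in cDC2, and the helicase subunit Mcm5 had 32.3 CPM in cDC1 and 9.33 CPM in cDC2. Stmn1, a regulator of microtubules, had 109 CPM in cDC1 and 20.7 CPM in cDC2. Mki67, the common proliferation marker, had nearly the same level in both, with 21.7 CPM in cDC1 and 21.8 CPM in cDC2. A UMI of any of 5 cycling markers was found in 9.21% of cDC1 cells [7.32 to 11.4] and 8.03% of cDC2 cells [6.84 to 9.35].

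Housekeeping groups were nearly level. Of 19 ribosomal protein genes, 0 passed 2-fold in either direction, and of 19 nuclear genes of oxidative phosphorylation, 1 (Cycs, cytochrome c) was at least 2-fold higher in cDC1. Glycolysis gave 3 of 15 genes higher and 2 lower in cDC1. Pfkp, an isoform of phosphofructokinase, had 68.1 CPM in cDC1 and 17.3 CPM in cDC2, whereas Eno1 had 55.7 CPM in cDC1 and 142 CPM in cDC2. Of 26 immediate early genes, which respond within minutes to stimulation and to cell handling, 1 was higher and 8 were lower in cDC1, with a median log2 ratio of −0.61. Fos had 142 CPM in cDC1 and 130.5 CPM in cDC2, and Jun had 228 CPM in cDC1 and 484 CPM in cDC2. Of 30 cytoskeletal and S100 genes, 3 were higher and 7 lower in cDC1. Crip1, a small LIM protein, had 2216 CPM in cDC1 and 609 CPM in cDC2 (log2 ratio 1.86), and S100a6 had 164 CPM in cDC1 and 1241 CPM in cDC2 (log2 ratio −2.92). Of 14 apoptosis regulators, 1 was higher and 2 were lower in cDC1. That is near the shares over all genes compared, of which 7.14% were higher and 14% lower.

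Outside these lists, the 12 genes with the highest ratio in each direction, at 50 CPM or more in the higher library, held receptors, enzymes and genes of unassigned function. Gpr141b had 152 CPM in cDC1 and 0.171 CPM in cDC2 (log2 ratio 9.80 [8.44 to 11.67]). Next came Ttc39a, with 55.7 CPM in cDC1 and 0.214 CPM in cDC2, Pdia5, a protein disulphide isomerase, with 129 CPM in cDC1 and 1.58 CPM in cDC2, and Dbn1, the actin-binding protein drebrin, with 64.1 CPM in cDC1 and 0.814 CPM in cDC2. The other 8 on the cDC1 side were Pianp, Gm36723, Gm43914, Nek6, Clec1a, Lima1, Sept3 and Plcb4, with log2 ratios of 3.82 to 5.54. On the cDC2 side, Gm34680 had 1 UMI in cDC1 and 3212 UMIs in cDC2 (log2 ratio −10.83 [−16.13 to −8.35]). Sirpb1a had 0 UMIs in cDC1 and 2980 UMIs in cDC2, and Gm9733 had 0 UMIs in cDC1 and 1799 UMIs in cDC2. With 3 counts for the 0, Sirpb1a was 561.7-fold and Gm9733 339.1-fold lower in cDC1. Tgm2, tissue transglutaminase, had 0.833 CPM in cDC1 and 160 CPM in cDC2, and Mmp12, a macrophage elastase, had 0.681 CPM in cDC1 and 86.5 CPM in cDC2. The others were Rgl1, St8sia6, Lysmd2, Sh2d1b1, Mcemp1, Bex6 and Ddr1, with log2 ratios of −5.71 to −8.16.

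Genes whose share of cells differed most were more abundant. Mpeg1, which encodes the pore-forming protein perforin-2, had 756 CPM in cDC1 and 78.3 CPM in cDC2 and was found in 80.0% of cDC1 cells and 13.8% of cDC2 cells. It reached 1363 CPM in pDC, so its high level was shared with pDC. Txn1, thioredoxin, had 833 CPM in cDC1 and 139 CPM in cDC2, in 84.0% of cDC1 cells and 26.4% of cDC2 cells. Aif1, an actin-bundling protein, had 596 CPM in cDC1 and 91.8 CPM in cDC2. The lysosomal genes Fuca1, Gusb and Npc2 were also among these 12, together with Atpif1, BC028528, Fnbp1, Cd81, Rala and Cyb5a. On the cDC2 side, Fyb, an adaptor that links immune receptors to integrins, had 71.4 CPM in cDC1 and 556 CPM in cDC2, in 16.2% of cDC1 cells and 71.8% of cDC2 cells. Ccnd1, cyclin D1, had 197 CPM in cDC1 and 1049 CPM in cDC2, in 33.8% of cDC1 cells and 79.9% of cDC2 cells. Ffar2, a receptor for short-chain fatty acids, had 21.6 CPM in cDC1 and 329.6 CPM in cDC2. Klrd1, which encodes CD94, had 18.3 CPM in cDC1 and 339 CPM in cDC2, and Ptpn6, the phosphatase SHP-1, had 80.9 CPM in cDC1 and 361 CPM in cDC2. The remaining ones were Limd2, Gngt2, Lst1, Ifitm6, Mycbp2, Ms4a4c and Mdh2.

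Set beside pDC, the genes that separated cDC1 from cDC2 were mostly not shared with that further cell type. Of the 149 genes at least 8-fold higher in cDC1, 27 stood in pDC at 50% or more of the cDC1 level, and 108 were within 2-fold of the cDC2 level or under 5 CPM. Irf8 and Mpeg1 were higher in pDC than in cDC1. Of the 332 genes at least 8-fold lower in cDC1, 88 stood in pDC at 50% or more of the cDC2 level, and 218 were near the cDC1 level or under 5 CPM. Cd7, Cybb, Zeb2, Fcer1g and Cd209a were among the genes that cDC2 and pDC had in common, with 664, 1040, 539, 1116 and 290.5 CPM in pDC.

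The spread of single cells showed which of these differences separated nearly every cell. In UMIs per 10000 of the cell, Cst3 had a median of 214 in cDC1 cells, with the 10th and 90th percentiles at 137 and 317.5, and a median of 14.8 in cDC2 cells, with percentiles at 6.64 and 32.4. These ranges did not overlap. Irf8 had a median of 15.9 in cDC1 cells (8.96 to 23.5) and 0 in cDC2 cells (0 to 0.830), and S100a4 a median of 0 in cDC1 cells and 16.2 in cDC2 cells (7.29 to 29.4). Cd74 overlapped widely, with a median of 188 in cDC1 cells (128 to 266) and 222 in cDC2 cells (143 to 324).

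**Figure D5:**
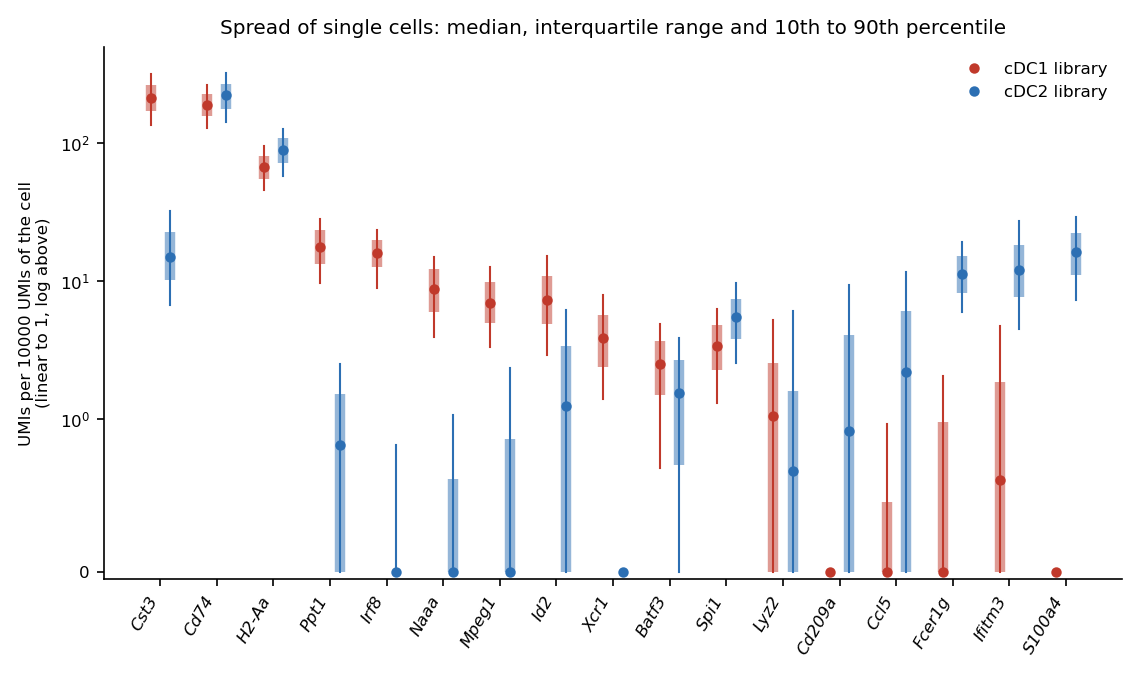
UMIs per 10000 UMIs of the cell (vertical axis, linear to 1 and logarithmic above) for 17 genes in cDC1 cells (red) and cDC2 cells (blue). Points are medians over the cells of 1 library, bars the interquartile range and lines the 10th to 90th percentiles. Cst3, Irf8, Fcer1g and S100a4 have ranges that do not overlap, whereas Cd74, Batf3, Spi1 and Lyz2 overlap.

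Some genes were carried by few cells within a library, and these cells shared other genes. Correlations across thinned cells of 1 library are a description, since the cells share that library and its depth. In cDC1, Vim, the intermediate filament vimentin, correlated with Anxa2 (r = 0.574), S100a10 (r = 0.53) and Crip1 (r = 0.49) over 814 cells. Cxcl9 had 3 or more UMIs in 96 cDC1 cells (11.8%) and correlated with Serpina3g (r = 0.436) and Apol7c (r = 0.341). In cDC2, Crip1 had 3 or more UMIs in 254 cells (13.5%) and correlated with Ahnak (r = 0.572), Vim (r = 0.54) and Ccr2 (r = 0.396) over 1881 cells. A group of genes with Crip1, Vim and Ahnak in common thus varied together in both libraries.

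Lyz2, the macrophage lysozyme, had 201 CPM in cDC1 and 643 CPM in cDC2 (log2 ratio −1.68), yet it was found in 28.8% of cDC1 cells and 24.7% of cDC2 cells. The top 10% of cells held 63.6% of its UMIs in cDC1 and 87.8% in cDC2. Within cDC2, 143 cells (7.6%) had 3 or more Lyz2 UMIs, and Lyz2 correlated with Ccr2 (r = 0.436), Psap (r = 0.43), Csf1r (r = 0.368), Mpeg1 (r = 0.352) and Clec12a (r = 0.314). Of these partners, Psap, Mpeg1 and Clec12a were at least 2-fold higher in cDC1 as a whole.

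Markers of other cells were present at low levels and not evenly. Of 15 compared monocyte and macrophage genes, 0 were higher and 11 were at least 2-fold lower in cDC1, and the list of 21 summed to 475 CPM in cDC1 and 1302 CPM in cDC2. Fcgr1, C5ar1, Vcan and F13a1 had 0 UMIs in cDC1. At least 2 monocyte or macrophage markers were held by 4 cDC1 cells (0.491%) and 120 cDC2 cells (6.38%) unthinned. Without those cells the log2 ratio of Lyz2 was −0.92, C1qa changed side to 1.13 (1.51 CPM in cDC1 and 18.8 CPM in cDC2 with all cells), C1qb changed side to 0.55 (1.36 CPM in cDC1 and 24.96 CPM in cDC2 with all cells), and the list median was −1.31 in place of −3.52. Neutrophil genes summed to 1.74 CPM in cDC1 and 73.1 CPM in cDC2, with Ly6g at 0 UMIs in both and S100a8 and S100a9 in 2.34% and 2.61% of cDC2 cells. B cell genes summed to 285 CPM in cDC1 and 335 CPM in cDC2, T cell genes to 27.0 CPM in cDC1 and 28.3 CPM in cDC2, and NK cell genes to 109 CPM in cDC1 and 80.5 CPM in cDC2. Genes of pDC summed to 239.9 CPM in cDC1, 383 CPM in cDC2 and 21605 CPM in pDC, with Klk1 at 0 UMIs in both cDC libraries. The part of such cells in the other differences was not tested beyond leaving them out.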

How the data were processed

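Per the labels' protocols, cells were sorted by flow cytometry and libraries were made with a droplet kit of 10x Genomics that reads the 3' end of transcripts. The authors deposited raw UMI counts of 24455 genes in 25991 cells. Per the submitters' processing notes, they used Cell Ranger 6.0.1 on the mm10 genome, and also Seurat. How they filtered cells was not stated. Counts were summed over the cells of a library and divided by its total to give CPM. Genes with at least 5 CPM in 1 library were compared. Ratios have exact conditional intervals, levels exact Poisson intervals and shares exact Clopper-Pearson intervals, all at 95%. A count of 0 was set to 3 counts in ratios. UMIs are molecules, yet the intervals cover counting error only. With 1 library per side no test was run, and a gene is described as past 2-fold or past 8-fold. The calculation recovered the ratios of simulated counts. Genes outside the lists were named by rule: 12 in each direction with the largest ratio at 50 CPM or more, and 12 with the largest difference in the share of cells, leaving out mitochondrial, antigen receptor and sex-linked genes. The members and lists were chosen with earlier results of these data known. Software was Python 3.11.15, numpy 2.4.6, scipy 1.17.1, scanpy 1.11.5 (Scrublet), R 4.3.3 and edgeR 4.0.16 (TMM factors only). Promoters and gene positions came from RefSeq tables of GRCm38.p6, joined by symbol.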

Additional observations from a re-analysis of the deposited data

How the results depend on the processing

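Without a minimum level, 2487 genes were at least 2-fold higher in cDC1 and 2585 lower, of 16483. With a minimum of 20 CPM, 376 were higher and 766 lower, of 5854. Under the other alternatives the counts stayed within 1.5 times, with 609 to 861 genes higher and 1053 to 1591 lower. These were TMM factors, per-cell means and thinned cells. Left out in turn were doublets, cells with a cycling marker, cells with markers of other types, and ribosomal and mitochondrial genes. Also among them, but added after seeing the data, were leaving out cells with macrophage markers and centring on the median. Leaving the genes of sorted proteins out of their lists was also added then. Of 289 named or listed genes past 2-fold, 289 kept their direction and 275 stayed past 2-fold under TMM, and 288 and 274 did so in thinned cells. Leaving out cells with markers of other types removed 442 cDC1 cells (54.3%) and 1165 cDC2 cells (61.9%). Of these, 434 and 889 held at least 2 pDC markers unthinned. The pDC marker Bst2 had UMIs in 76.8% of cDC1 cells and 61.5% of cDC2 cells unthinned, so this is no count of other cells. Of the 289 genes, 289 kept their direction and 280 stayed past 2-fold. The sign turned for Tnfsf9 in thinned cells (0.36). It also turned for Ccnb2 (−0.86), Rrm2 (−2.43) and Hbb-bs with the erythroid and platelet list (both −0.58) without cells with a cycling marker. That step left out every cell with an unthinned UMI of a cycling marker, 280 cDC1 cells (34.4%) and 527 cDC2 cells (28%). These cells were chosen by genes of the cell cycle list itself. The sign turned as well for C1qa (1.13) and C1qb (0.55) without cells with macrophage markers. Without a minimum level the medians of the T cell list (3.12) and the stromal list (0.32) turned sign, as genes of few UMIs entered them. The medians of the apoptosis, ribosomal and NK lists turned positive under TMM (0.04, 0.16 and 0.08) and under centring on the median (0.08, 0.19 and 0.11). No paired analysis was possible because each side is 1 library. Animal, sort and library preparation cannot be told apart from cell type, and genes under 5 CPM are poorly resolved at this depth.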

Other observations

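Some values belong to no group of genes above. The nuclear RNA Malat1 was the most abundant transcript of both libraries, with 56276 CPM in cDC1 and 31768 CPM in cDC2 (log2 ratio 0.82). Xist, the RNA of the inactive X chromosome, had 564 CPM in cDC1 and 867 CPM in cDC2, and the Y-linked genes Ddx3y, Eif2s3y and Uty had 0 UMIs in both. The Y-linked gene Kdm5d had 0 UMIs in cDC1 and 3 UMIs in cDC2. How reads were divided between Xist and Tsix was not checked here.

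On the X chromosome (chrX:53344594-53797716), 5 genes adjacent among those compared were higher in cDC1, with log2 ratios of up to 2.43. They were Mospd1, Rtl8c, Rtl8a, Rtl8b and Xlr. Xlr, a lymphocyte-regulated X-linked gene, had 20.5 CPM in cDC1 and 6.21 CPM in cDC2. The Gbp genes of chromosome 5 (chr5:104935057-105139586), which encode interferon-induced GTPases, and their neighbour Abcg3 were lower in cDC1 as a run of 4, with ratios of −1.09 to −2.91. Cd22, an inhibitory receptor best known from B cells, had 4.92 CPM in cDC1 and 61.2 CPM in cDC2. The B cell gene Cd79b also had 5.38 CPM in cDC1 and 28.5 CPM in cDC2 (log2 ratio −2.41). At least 2 B cell markers were found in 19 cDC1 cells (2.33%) and 85 cDC2 cells (4.52%) unthinned. After thinning, they were found in 5 cDC1 cells (0.614%) and 10 cDC2 cells (0.532%). Cd22 was among the 289 genes that kept their direction without cells with markers of other types. That step removed many cells with pDC markers as well, and leaving out cells with B cell markers alone was not tested.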
